A study of Mus musculus with 3 samples.

Results

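The transcripts of 10 immediate early transcription factors were examined in islet graft-bearing spleens: the FOS family genes Fos, Fosb, Fosl1 and Fosl2, the JUN family genes Jun, Junb and Jund, the related factor Atf3, and the zinc finger factors Egr1 and Egr2. They were chosen by gene name, as all probes of the array that carry 1 of these names, which gave 10 of the 34797 gene names and 11 of the 55679 probes on the array, with 2 probes for Fosl2 and 1 for each other gene. All 3 spleens came from C57BL/6J mice, which the study made diabetic with streptozotocin, and each had received 25 syngeneic islets in the spleen and, by the treatment protocol, 100 beneath the kidney capsule. The day 0 spleen (Sample 1) was taken directly after the transplantation, the day 2 spleen (Sample 2) 2 days later, and the day 139 spleen (Sample 3) after nephrectomy on day 100 had taken out the capsular graft. The sample characteristics name the capsular graft for the day 139 spleen only. Ages are not given for single samples, and neither is the number of mice behind each RNA. In comparisons with the day 139 spleen, the age of the mice therefore cannot be told apart from the time since transplantation. No spleen without islets was analysed here, so every comparison is between spleens that carried grafts and had been through surgery.

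AP-1 is a dimer of basic leucine zipper proteins, in which a FOS protein pairs with a JUN protein and binds DNA, while JUN proteins can also pair with each other and with ATF3. Many, but not all, genes of these factors and of the EGR proteins are transcribed within minutes of a stimulus. Such a stimulus can be a growth factor, a cytokine, tissue injury or the handling of cells. It acts through serum response factor, CREB-type factors and MAP kinases that are already present, and most of these transcripts decay quickly. In lymphoid tissue the same genes respond to antigen receptor signals, so their levels in a spleen sum over many cell types.

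RNA was hybridized to 1 one-color array per spleen, all on 1 slide, and values are background-subtracted, quantile-normalized signals in the linear units of the scanner. A ratio is the signal of the later spleen divided by that of the earlier one. The error given with a log2 ratio is that assigned by the scanner software, which covers neither labeling nor differences between mice. For bright probes it is close to a fixed share of the signal before normalization, as for Jun (299 at 2990) and Jund (856 at 8560) on day 0. It is therefore near 0.20 for such probes and is not a spread measured between spots. How many of all probes have a ratio beyond this error was not counted. With 1 array per day there is no test of the days, and 3 arrays limit the precision. A gene is called raised or lowered by the criteria that the study names, a Z-score of at least 2 with a ratio of at least 1.5, or a Z-score of at most -2 with a ratio of at most 0.66, where the Z-score sets the log2 ratio of a probe against the SD of this ratio among 1000 probes of similar mean signal. All 10 genes were well above background on the day 0 and day 2 arrays, and all but Fosl1 on the day 139 array. None of their spots was saturated. The listed T cell, B cell, macrophage and erythroid markers of the spleen were all well above background on every array, and fewer cells of a type cannot be told apart from less RNA per cell in whole tissue.

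Promoter sequences of the genes that carry the results are shown for Fos, Jun and the members with the lowest ratios, as far as entries exist, to set side by side the letters known from immediate early promoters. They are the 250 bases before the transcript start in RefSeq (GRCm38.p6), 5′ to 3′ on the strand of the gene. Of the 10 genes, 8 had an entry, and Egr2 had 5. Capitals mark matches, on either strand, to the CRE core TGACG, the full CRE TGACGTCA, the AP-1 site TGACTCA, its variant TGACATCA, the EGR sites GCGGGGGCG and GCGTGGGCG, TATAAA, and the CArG box to which serum response factor binds. The CRE core is part of the full CRE. The Fos window is chr12:85473640-85473889 (plus strand), that of Jun chr4:95052223-95052472 (minus), that of Junb chr8:84978749-84978998 (minus), that of Fosl2 chr5:32136222-32136471 (plus) and that of Egr2, 1 of 3 entries that tie for the most matches, chr10:67537619-67537868 (plus).
Fos: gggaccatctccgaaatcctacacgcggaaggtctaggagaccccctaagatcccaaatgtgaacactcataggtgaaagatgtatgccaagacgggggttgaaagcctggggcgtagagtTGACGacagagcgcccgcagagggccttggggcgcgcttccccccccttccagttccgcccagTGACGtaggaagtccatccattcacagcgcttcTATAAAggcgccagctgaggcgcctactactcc
Jun: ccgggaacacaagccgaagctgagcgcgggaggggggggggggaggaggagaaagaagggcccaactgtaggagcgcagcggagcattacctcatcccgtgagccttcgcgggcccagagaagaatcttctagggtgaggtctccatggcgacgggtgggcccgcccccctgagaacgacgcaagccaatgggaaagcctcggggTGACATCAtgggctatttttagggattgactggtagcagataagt
Junb: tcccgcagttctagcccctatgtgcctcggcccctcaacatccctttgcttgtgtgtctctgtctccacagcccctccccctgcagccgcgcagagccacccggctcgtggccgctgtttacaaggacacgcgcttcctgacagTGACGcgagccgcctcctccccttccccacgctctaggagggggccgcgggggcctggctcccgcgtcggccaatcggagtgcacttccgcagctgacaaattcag
Fosl2: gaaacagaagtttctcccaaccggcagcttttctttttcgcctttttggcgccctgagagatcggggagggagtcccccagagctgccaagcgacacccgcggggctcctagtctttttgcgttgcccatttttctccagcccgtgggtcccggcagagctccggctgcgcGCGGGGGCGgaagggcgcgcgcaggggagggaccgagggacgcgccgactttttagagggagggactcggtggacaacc
Egr2: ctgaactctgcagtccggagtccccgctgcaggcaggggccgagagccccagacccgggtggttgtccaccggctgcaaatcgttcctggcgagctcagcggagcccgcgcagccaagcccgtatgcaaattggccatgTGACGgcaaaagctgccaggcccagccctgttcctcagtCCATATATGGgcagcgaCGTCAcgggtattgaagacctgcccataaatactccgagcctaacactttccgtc
The Fos window held CRE cores starting 129 and 66 bases before the start and a TATA box at 33 bases. The Jun window held the variant AP-1 site at 45 bases, Junb a CRE core at 106 bases, and Fosl2 an EGR site at 79 bases. In the Egr2 window a CArG box lay at 72 bases, with CRE cores at 111 bases and, on the other strand, at 55 bases. Fosb had a CRE core at 60 bases and an EGR site at 50 bases, Atf3 a CRE core on the other strand at 7 bases, and Jund no match. Of the 32851 promoter entries of the same length, 17.8% held the CRE core, 1.47% a CArG box, 2.57% the EGR site with all G, 2.93% the variant AP-1 site and 12.4% TATAAA. The AP-1 site (4.46% of entries), the full CRE (1.55%) and the EGR site with T (0.536%) were in none of the members' windows. These are matches of letters only, and sites further than 250 bases before the start were not looked for.

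Most of the factors had their highest signal on day 0. Of the 10 genes, 8 had a lower signal on day 2 than on day 0, of which Atf3 and Egr1 lay within the scanner error. On day 139, 9 had a lower signal than on day 0, of which Fosb, Atf3 and Egr2 turned to slightly higher when the arrays were scaled by their spike-in controls. Under that scaling the median log2 ratio of all probes was 0.36, above the ratio of each of these genes. With quantile normalization, 48.4% of all detected probes were lower on day 2 and 52.2% on day 139 than on day 0. The median log2 ratio of the 10 genes was -0.67 for day 2 over day 0, against 0.01 over all 32108 probes well above background on at least 1 array, and -0.57 for day 139 over day 0, against -0.02. Between day 139 and day 2 the median was -0.19, against -0.04, with 7 genes lower and 3 higher, where 53.1% of all probes were lower. But spike-in scaling turned the median of the 10 genes to 0.25 and that of all probes to 0.40. The comparisons share arrays and are not independent of each other. In the plot of normalized signals by day, Fosb is highest on day 2 and Jund on day 139, and the other genes are highest on day 0.

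**Figure D1:**
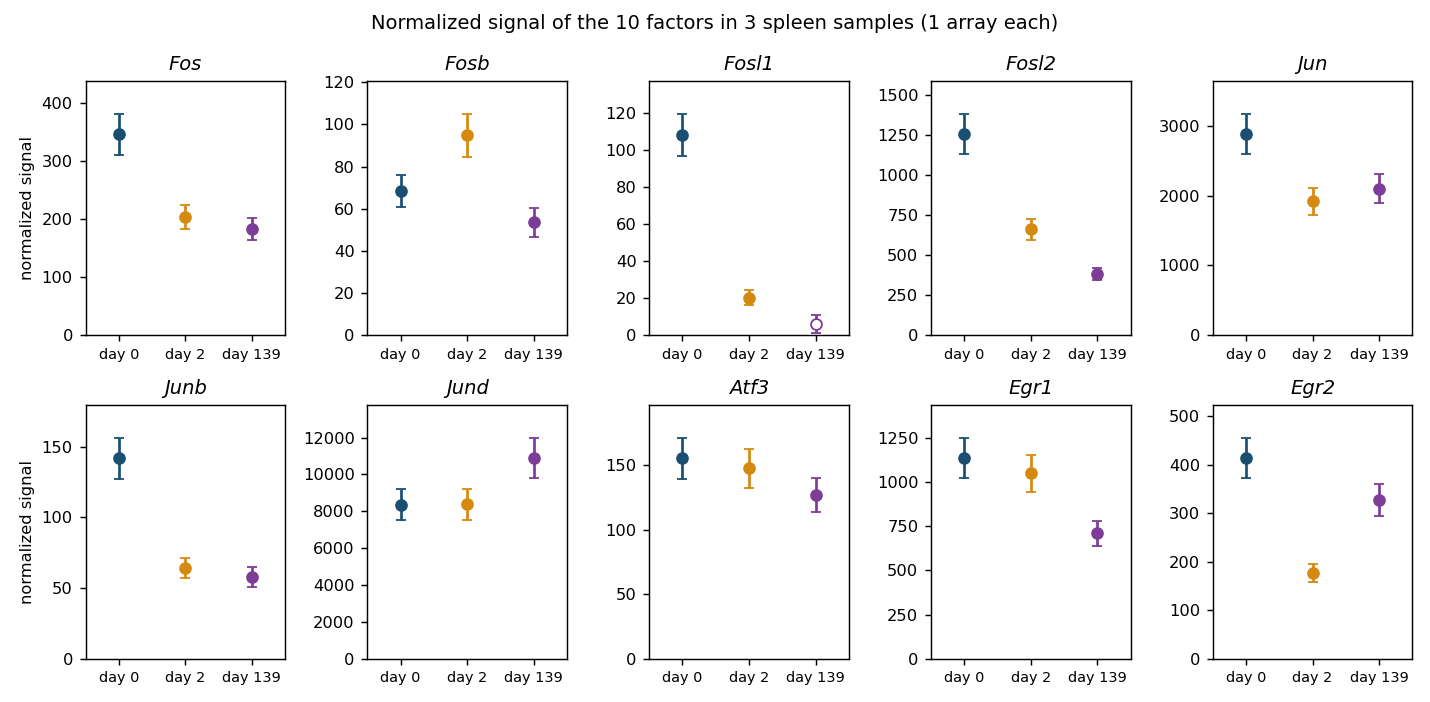
Normalized signal (linear scale from 0, scanner units) of the 10 factors in the day 0, day 2 and day 139 spleens, with 1 array for each day. Bars are the errors of the scanner software, and the open circle marks a signal not well above background. Fosl1 fell from 108 on day 0 to 20.2 on day 2, Fosb was highest on day 2 at 94.8, and Jund was highest on day 139 at 10894.

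In day 2 over day 0, Fosl1, Fosl2 and Egr2 were lowered, 3 of the 10 genes, where 2.55% of all detected probes were lowered. No factor was raised there, where 1.91% of probes were. In day 139 over day 0, Fosl1, Fosl2 and Junb were lowered, again 3 of the 10, against 2.21% of all probes, and none was raised, against 2.52%. Fosl1 alone was lowered in day 139 over day 2 (1.77% of all probes were) and none was raised (2.39% were). By the ratio alone, 5 of the 10 genes were at or below 0.66 in day 2 over day 0, where 10.4% of all probes were, and 0 were at or above 1.5, where 10.1% were. For day 139 over day 0 the same counts were 5, against 14.7%, and 0, against 12.8%. For day 139 over day 2 they were 3, against 14.4%, and 1, against 12.4%. With 10 genes, these counts are described and not tested.

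Fosl1 encodes FRA-1, a FOS family protein without the transactivation domain of FOS that accumulates in activated and invasive cells, and it had the lowest ratio of the 10 in day 2 over day 0. Its probe (chromosome 19, 5455496 to 5455555 on the mm9 build of the array) had signals of 108 on day 0, 20.2 on day 2 and 6.06 on day 139. The day 0 signal stood apart from both later ones. The log2 ratio was -2.42 ± 0.32 (scanner error) for day 2 over day 0, a 5.34-fold lower signal with a Z-score of -3.19. It was still called with a normexp background correction, whose offset lifts dim signals, but at -0.99. On day 139 the probe was not well above background, where the lowest signal that was is 18.2. Against that level Fosl1 was at least 5.93-fold lower than on day 0, and at least 1.11-fold lower than on day 2. The call against day 2 therefore rests on a signal below that level. Folds given here and below as at least use the lowest such signal of the array, or the probe's own signal where that is higher. This level is not a strict limit, as Plau at 20.0 on day 139 was not well above background. The unprocessed mean intensities of this spot, 177, 95.3 and 80.4, compare with 59, 60 and 59 in the area around it.

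Fosl2 encodes FRA-2, the other FOS family member of this kind, and it was lower at each later day. The brighter probe (chromosome 5, 32460076 to 32460135) had signals of 1253 on day 0, 659 on day 2 and 380 on day 139. Its log2 ratios were -0.93 ± 0.20 for day 2 over day 0 (Z-score -2.05), -1.72 ± 0.20 for day 139 over day 0 (Z-score -2.99) and -0.79 ± 0.20 for day 139 over day 2 (Z-score -1.34), the last of which did not pass and was -0.33 under spike-in scaling. Each step was larger than the scanner error, while the SD of the ratio among similar probes was 0.45, 0.58 and 0.59. The other probe (chromosome 5, 32455088 to 32455147, plus strand) starts at base 738 of the transcript and the brighter one at base 5726, which is 4988 bases apart both in the transcript and in the genome. It is printed here because it reads another stretch of the transcript, has 1 reading frame without a stop codon, and gave a different size for the early step.
Fosl2 probe at base 738: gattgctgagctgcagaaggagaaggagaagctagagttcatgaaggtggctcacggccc
This probe had signals of 53.5, 42.6 and 14.4, and was not well above background on day 139. Its log2 ratio was -0.33 ± 0.25 for day 2 over day 0, with a Z-score of -0.47. Set against 18.2, the lowest signal well above background on day 139, it was at least 2.94-fold below day 0. Both probes had the order day 0, day 2, day 139. They differed in day 2 over day 0, where only the brighter probe passed, and with the median over both probes Fosl2 was not called there, at -0.63.

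Fos, the founding AP-1 gene, was read by a probe on chromosome 12 (86817900 to 86817959, plus strand) that was printed as 10 spots on each array. On day 0 the spots had normalized signals from 306 to 369, with a median of 349. They ranged from 180 to 222 on day 2, with a median of 209, and from 176 to 194 on day 139, with a median of 182 over the 9 spots not marked as outliers. The day 0 spots did not overlap with those of either later day, and the day 2 and day 139 spots did overlap. How many other probes printed as several spots separate in this way was not counted. The spots had a mean of 345 ± 20.2 (SD, 10 spots) on day 0, 205 ± 14.3 (SD, 10 spots) on day 2 and 183 ± 6.19 (SD, 9 spots) on day 139. Spots of 1 array share the same RNA, so this spread is technical. The log2 ratio of the probe was -0.76 for day 2 over day 0 and -0.92 for day 139 over day 0, each with a scanner error of 0.21, and the Z-scores of -1.55 and -1.65 did not reach the criterion. For day 139 over day 2 it was -0.16, within the error, and 0.29 under spike-in scaling.

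**Figure D2:**
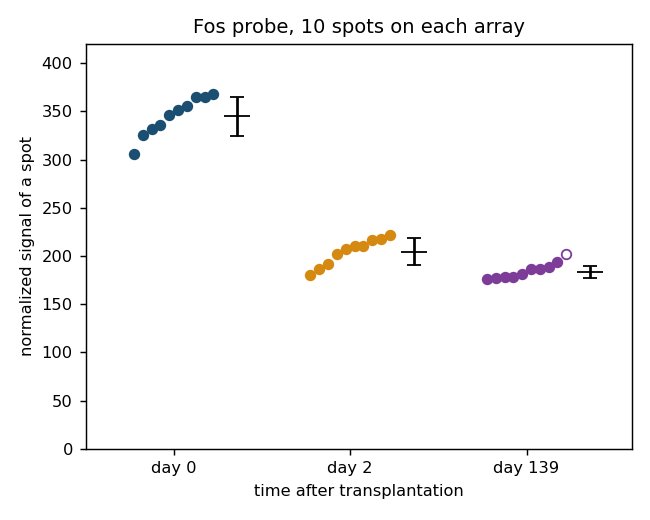
Normalized signal (linear scale from 0, scanner units) of each spot of the Fos probe on the day 0, day 2 and day 139 arrays, in order of size within an array. Black bars are the mean and SD of the spots used, and the open circle is a spot marked as an outlier. The day 0 spots lie between 306 and 369, above every spot of the later arrays. Spots of an array share the same RNA.

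Fosb, whose protein pairs with JUN proteins like FOS, was the only FOS family gene with its highest signal on day 2. The probe (chromosome 7, 19888168 to 19888227) had signals of 68.4, 94.8 and 53.5 on days 0, 2 and 139. The log2 ratios were 0.47 ± 0.22 for day 2 over day 0, -0.83 ± 0.24 for day 139 over day 2 and -0.35 ± 0.25 for day 139 over day 0. None passed, with Z-scores between -1.19 and 0.73. Each was larger than the scanner error, but the SD of the ratio among similar probes was 0.65 to 0.77. Day 139 over day 0 changed sign under spike-in scaling, to 0.01, where the median of all probes was 0.36.

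The JUN family genes differed among themselves. Junb, whose product can dampen the activity of JUN, was printed as a single spot and is read by the following probe (chromosome 8, 87501881 to 87501940, minus strand), which starts at base 707 of the transcript. The sequence is shown because Junb had the lowest ratios of the JUN family.
Junb probe at base 707: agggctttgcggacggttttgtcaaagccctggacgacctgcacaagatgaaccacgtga
Its signals were 142, 64.3 and 57.8 on days 0, 2 and 139, so both later spleens lay below day 0 and close to each other. The log2 ratio for day 2 over day 0 was -1.14 ± 0.21 with a Z-score of -1.91, just short of the criterion, and for day 139 over day 0 it was -1.29 ± 0.23 with a Z-score of -2.03, just past it. Under spike-in scaling these calls swapped, with day 139 no longer called at -0.93. Day 139 over day 2 was -0.15 ± 0.23, within the error, and was 0.28 under spike-in scaling.

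Jun, which can form AP-1 without a FOS partner and acts on its own promoter, had signals of 2878, 1919 and 2100 (chromosome 4, 94716928 to 94716987). Day 0 was the highest of the 3 days. The log2 ratio was -0.58 ± 0.20 for day 2 over day 0 and -0.45 ± 0.20 for day 139 over day 0, neither of which passed, with Z-scores of -1.47 and -0.77. The day 2 ratio of 0.667 was just above the limit of 0.66. Day 139 over day 2 was 0.13, less than the error. Under spike-in scaling it was 0.56, and day 139 over day 0 was -0.05.
Jund, the JUN gene with a steady transcript in most resting cells, did not share this course. Its signals were 8362, 8394 and 10894 (chromosome 8, 73224436 to 73224495), and the log2 ratio of day 2 over day 0 was 0.01 ± 0.20. Day 139 was the highest, with log2 ratios of 0.38 over each earlier day, larger than the scanner error of 0.20 but with Z-scores of 0.68 and 0.67. It was the only member with a higher signal on day 139 than on day 0, apart from Fosb, Atf3 and Egr2 under spike-in scaling.

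Atf3, a stress-induced factor that represses many inflammatory genes as a homodimer, had signals of 155, 147 and 127 on days 0, 2 and 139 (chromosome 1, 192994547 to 192994606). Days 0 and 2 did not differ beyond the scanner error, with a log2 ratio of -0.07 ± 0.21. Day 139 was lower by -0.29 ± 0.21 on the log2 scale than day 0 and by -0.22 ± 0.21 than day 2, with Z-scores of -0.48 and -0.35. Both of these ratios changed sign under spike-in scaling, to 0.08 and 0.22, where the medians of all probes were 0.36 and 0.40.

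The EGR genes differed in the size of the step between days 0 and 2. Egr1, a zinc finger factor induced by serum and injury in most cell types, had signals of 1135, 1049 and 709 (chromosome 18). Days 0 and 2 lay within the scanner error of each other, with a log2 ratio of -0.11 ± 0.20, and day 139 was lower, by -0.68 ± 0.20 than day 0 and by -0.57 ± 0.20 than day 2, with Z-scores of -1.24 and -1.01. Under spike-in scaling these ratios were -0.26 and -0.12, the last within the error. Egr2, which in lymphocytes is induced by antigen receptor signals and restrains T cell activation, had signals of 414, 177 and 327 (chromosome 10, 67004798 to 67004857). It fell on day 2, by 1.23 on the log2 scale (scanner error 0.21, 2.34-fold lower, Z-score -2.49). On day 139 its log2 ratio over day 2 was 0.89 ± 0.21 (Z-score 1.32, called raised only with spike-in scaling, a scaled median absolute deviation or the ratio alone). Over day 0 it was -0.34 ± 0.21 (Z-score -0.50). The lowest Egr2 signal was thus that of day 2 and the lowest Egr1 signal that of day 139. Egr2 over day 0 on day 139 also changed sign under spike-in scaling, to 0.06, against 0.36 over all probes.

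**Figure D3:**
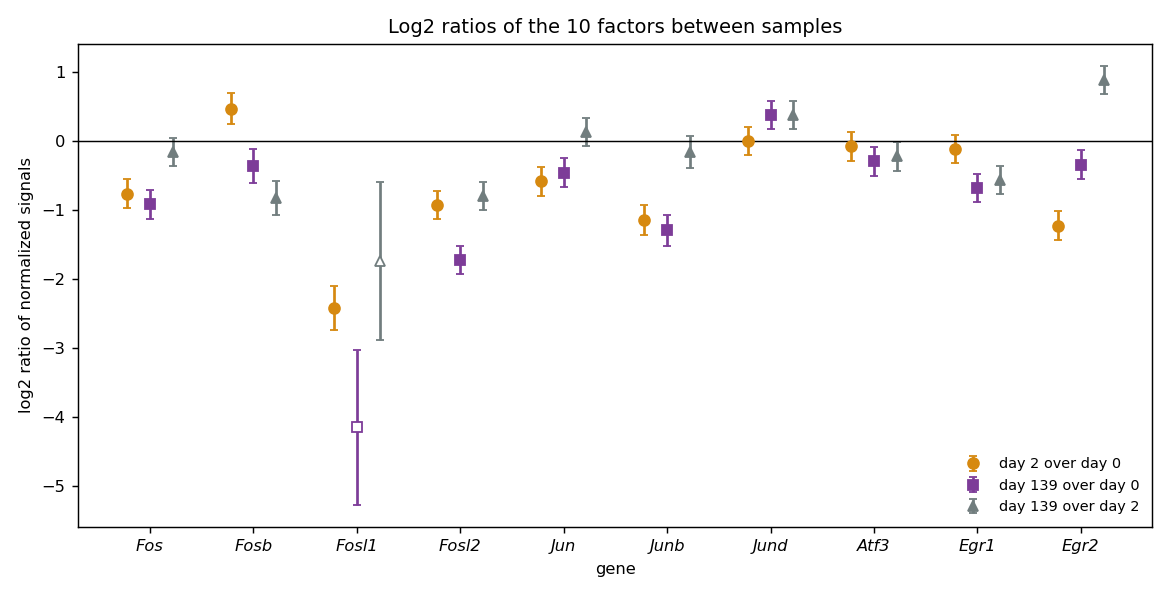
Log2 ratio of the normalized signals of each factor in day 2 over day 0 (circles), day 139 over day 0 (squares) and day 139 over day 2 (triangles). Bars are the scanner error, and open symbols rest on a signal not well above background. Fosl1 lies lowest in day 2 over day 0 at -2.42, Egr2 lies at -1.23 in day 2 over day 0 and at 0.89 in day 139 over day 2, and Jund lies at or above 0 in all 3.

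Other immediate early genes were mostly lower after day 0 as well. Their list was written from general knowledge but with earlier results of these data known, so it gives no independent support. Of 44 genes, 43 were measured (Nr4a3 was not well above background on any array). In day 2 over day 0, 8 were lowered and 0 raised, with a median log2 ratio of -0.47 and 33 of 43 genes lower. On day 139, 6 were lowered and 0 raised against day 0, with a median of -0.32, which became 0.08 under spike-in scaling. All probes had a median of 0.36 under that scaling. Against day 2, the day 139 spleen had 1 lowered and 0 raised, with a median of 0.10.
Those lowered on day 2 were Ptgs2, Socs3, Ier3, Errfi1, Trib1, Ier5, Phlda1 and Pim1. Socs3, the feedback inhibitor of cytokine signaling through STAT3, had signals of 7204, 1645 and 2315 on days 0, 2 and 139, with a log2 ratio of -2.13 ± 0.20 in day 2 over day 0. Ptgs2, which encodes cyclooxygenase 2, had a signal of 76.5 on day 0 and was not well above background later, at least 5.45-fold lower on day 2 and at least 4.20-fold lower on day 139. Errfi1, a feedback inhibitor of the EGF receptor, had signals of 7107, 2938 and 777, and was the gene lowered in all 3 comparisons, with log2 ratios of -1.27, -3.19 and -1.92.
On day 139, Nfil3 (806, 467 and 256) and Dusp1, a MAP kinase phosphatase (1543, 1247 and 599), were lowered against day 0 beside Ptgs2, Errfi1, Ier3 and Socs3. Ier5 was lowered on day 2 but had 347, 155 and 391, with its highest signal on day 139 and no call in that spleen.

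Few of the partners and upstream genes were called, and few of all detected probes were. Between 1.77% and 2.55% of all detected probes were lowered in each comparison, and between 1.91% and 2.52% were raised. The counts below were not tested against these shares. Of 16 other bZIP factors that can pair with FOS or JUN proteins or bind related sites, Maff was the only one lowered, with signals of 202, 47.9 and 77.9 and log2 ratios of -2.08 ± 0.23 on day 2 and -1.37 ± 0.22 on day 139 over day 0. The median of these genes was -0.15 for day 2 over day 0 and -0.28 for day 139 over day 0. The latter became 0.14 under spike-in scaling, against 0.36 over all probes. Of the EGR and SRF group, with Srf, its ELK and MKL partners and the NAB co-repressors of EGR proteins, 8 of 10 genes were measured and 0 were called in any comparison. Egr3 and Egr4 were not well above background on any array. None of 21 measured MAP kinase cascade genes was called either, with medians of -0.17 in day 2 over day 0 and 0.02 in day 139 over day 0. The latter was -0.09 with the median over the probes of a gene and 0.43 under spike-in scaling, where the median of all probes was 0.36.

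Genes known to be regulated through AP-1 or EGR sites had lower medians after day 0 than the factors themselves, a difference that was not tested. This list too was written with earlier results of these data known. Of 26, 22 were measured (Il2, Areg, Csf2 and Csf3 were not well above background). In day 2 over day 0, 10 were lowered and 1 raised, with a median log2 ratio of -0.86. Against day 0, 14 were lowered and 0 raised on day 139, with a median of -1.50, and in day 139 over day 2, 8 were lowered and 0 raised, with a median of -0.45. This last median was -0.03 under spike-in scaling, against 0.40 over all probes.
The cytokine Il6 had signals of 841, 50.9 and 40.4 on days 0, 2 and 139, and a log2 ratio of -4.05 ± 0.22 in day 2 over day 0. The neutrophil chemokine Cxcl2 had 257 and 38.9 on days 0 and 2, and on day 139 it was at least 14.1-fold below day 0. Ccl2, a monocyte chemokine, fell in steps from 1957 to 1007 and 151, and Timp1, an inhibitor of matrix proteases, had 5972, 3649 and 567. The collagenase gene Mmp13, a classical AP-1 target, had 165 and 63.4, and was at least 9.08-fold lower on day 139 than on day 0. Spp1, which encodes osteopontin, went the other way early, with 114 on day 0 and 648 on day 2, a log2 ratio of 2.51 ± 0.21, and was not well above background on day 139. Of the genes lowered on day 2, those with ratios closest to the limit were Ccl2 (-0.96) and Thbs1 (-0.99).

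**Figure D4:**
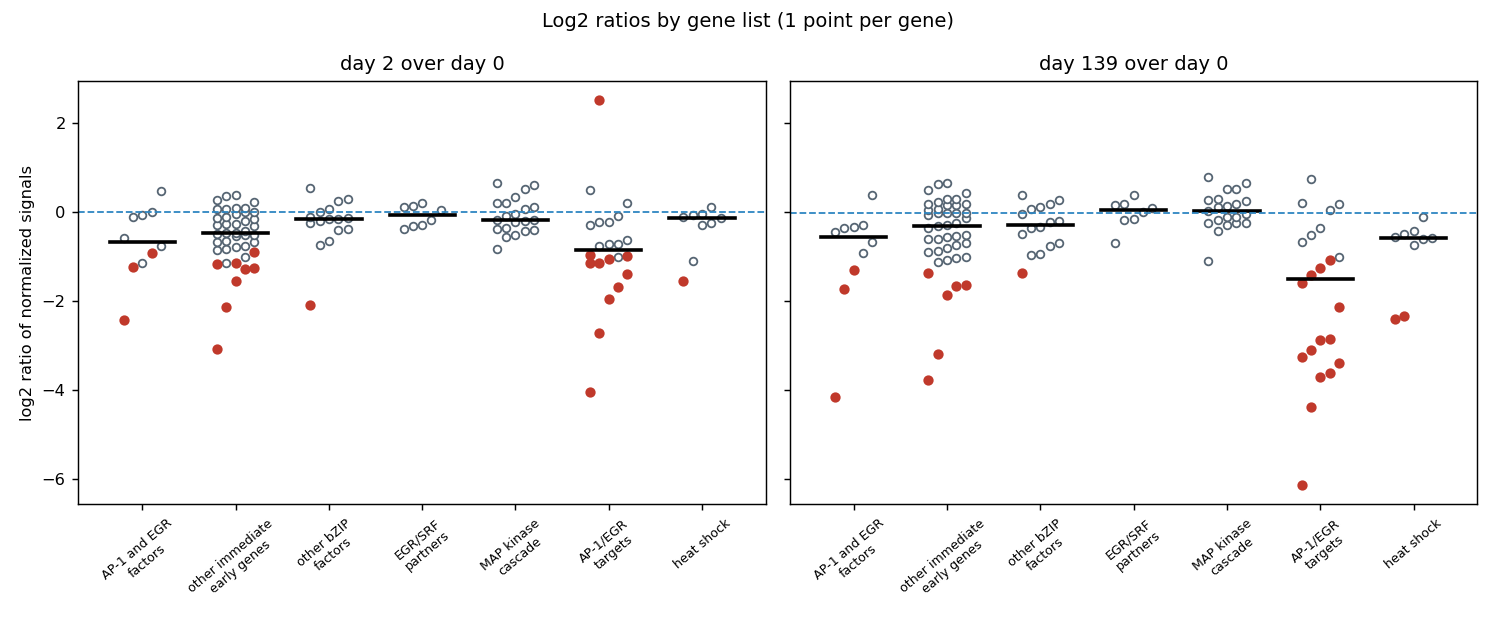
Log2 ratios of normalized signals in day 2 over day 0 (left) and day 139 over day 0 (right), with 1 point per gene, by gene list. Filled points passed the ratio and Z-score criteria, black bars are list medians, and the dashed line is the median of all detected probes. The factors have medians of -0.67 and -0.57, the targets of -0.86 and -1.50, and the MAP kinase cascade genes lie around the dashed line.

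Other measures moved between the same arrays. The list of 10 neutrophil markers had a summed normalized signal of 266682 on day 0, 115080 on day 2 and 121365 on day 139. Most of this sum came from S100a8 and S100a9, with 53944 and 147009 on day 0. Of the 10 markers, 3 had a higher signal on day 2 than on day 0, and 4 on day 139. All 10 were well above background on every array, and 5 of them (S100a8, S100a9, Cxcr2, Mmp8 and Retnlg) were lowered in both comparisons with day 0, where the medians were -1.04 and -0.79. Ly6g, Ngp, Camp, Ltf and Csf3r were not called. Of 9 measured heat shock genes, which encode chaperones, Hspb1 was lowered on day 2 and Hspb1 and Hspa1a on day 139 over day 0, with medians of -0.13 and -0.59. The T cell list summed to 16373, 22782 and 29468, with all 9 markers higher in each later spleen, and the B cell list to 47164, 46770 and 87986. Of the mesenchymal list, which summed to 11329, 50637 and 18144, Col1a1, Col3a1, Acta2 and Nkx2-5 were raised and Pdgfra was lowered on day 2 over day 0. Of 10 islet hormone and granule genes measured, which summed to 63618, 107767 and 33209, 8 were raised on day 2 over day 0. Of 5 mesothelial markers, 4 were raised on day 2 and on day 139 over day 0, with sums of 1604, 1981 and 4179. Their medians of 3.02 and 4.93 depended on the processing and were 0.66 and 1.91 at the lowest over the other settings. On day 139 over day 0, 4 of 6 plasma cell markers and 3 of 6 exocrine pancreas markers were raised, with all 8 erythroid and all 6 megakaryocyte and platelet markers at a lower signal, of which 1 and 0 were called. The exocrine median of 3.32 in this comparison was 0.72 at the lowest over the other settings. The endothelial list had medians of -0.59 and -0.14 in day 2 and day 139 over day 0, with 0 genes called. For the NK cell list they were -0.34 and -0.10, and for the macrophage list -0.22 and -0.33. These 3 lists had day 139 medians above 0 under spike-in scaling, of 0.25, 0.29 and 0.06, all below the 0.36 of all probes. The dendritic cell list had medians of 0.08 and 0.14. The part of these shifts in the levels of the factors was not tested.

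The genes outside them nearest to the median profile of the 9 factors well above background on all 3 arrays included Serpina3i, Glipr2, Rbms1 and B4galt3, at distances of 0.079 to 0.081 in log2 units over the 3 arrays, and 93 of 26887 probes lay within 0.1 of that profile. With 3 arrays such a likeness is a description of level only.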

How the data were processed

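Spleen RNA of 3 samples was measured on SurePrint G3 Mouse 8x60K arrays, 1 array per day. The authors deposited the scanner output, with the intensity of each spot on a linear scale after background subtraction and spatial correction within the array. Per the file headers it was made with Feature Extraction version 10.7.1.1, and the submitters' notes name version 9.5.1.1. The authors also deposited quantile-normalized intensity values, used as an alternative. Flags for background, saturation and outliers were taken as deposited, with no other change.

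Control spots and outlier spots were left out, spots of a probe averaged, and 55679 probes quantile normalized and taken to log2 with a floor of 1. A probe was detected if well above background on at least 1 array (30291, 29982 and 28088 probes on days 0, 2 and 139). Each gene took its brightest detected probe. All 10 members, the list genes past the criteria and the nearest profiles were to be named. Members, lists and criteria were chosen with earlier results of these data known. No p-value was computed. The calls were run on simulated arrays as a check of the code. The changes put in were larger than most of those of the factors, so this does not measure the error of the calls. Python 3.11.15, numpy 2.4.6, pandas 2.3.3, matplotlib 3.10.9 and limma 3.58.1 in R 4.3.3 were used. Another 14 settings, and 1 chosen after seeing the data, change normalization, background correction, filters, Z-score or probe choice.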

Additional observations from a re-analysis of the deposited data

How the results depend on the processing

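The deposited values differed from the recomputed ones by at most 0.011 on the log2 scale over the 11 probes. The spike-in scaling moved the median of all detected probes by 0.38 in day 139 over day 0 and by 0.44 in day 139 over day 2. With it the median of the 10 factors became -0.15 over day 0 and 0.25 over day 2, while relative to all probes it was -0.51 and -0.15, against -0.54 and -0.15 under quantile normalization. In day 2 over day 0, the 3 lowered genes became 1 with 1 SD over all detected probes, 5 with a scaled median absolute deviation and 5 by the ratio alone. Spike-in scaling gave 4 there. A normexp correction, a stricter ratio limit, or taking the median where a gene has several probes each gave 2. In day 139 over day 0, the ratio alone gave 5, and a median absolute deviation or a window of 250 probes gave 4. The count was 2 with spike-in scaling, 1 SD, or a floor at the dimmest detected signal of an array. It was also 2 when detection on all 3 arrays was required, or with a window ordered by the compared pair. In day 139 over day 2, the 1 lowered gene, Fosl1, became 0 with spike-in scaling, a normexp correction, a floor set to each array's dimmest detected signal, a filter for detection on all 3 arrays (which leaves Fosl1 out), a window of 250 probes, or, in an alternative chosen after seeing the data, a window ordered by the 2 arrays compared. It became 2 with a median absolute deviation and 3 by the ratio alone. The count raised there went from 0 to 1, by Egr2, with spike-in scaling, a median absolute deviation and the ratio alone. Fosl1 remained lowered on days 2 and 139 over day 0 in all 14 alternatives that kept it, and Fosl2 on day 139 over day 0 in all 15, whereas Junb kept that call in 11 of 15, Fosl2 its call on day 2 in 11 of 15, and Egr2 its call on day 2 in 14 of 15. With the normexp correction the Fosl1 ratio in day 139 over day 0 was -1.20. The causes were not tested. No paired analysis was possible because each group holds 1 array. With 1 array per day no replicate could be left out.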
